A study of Mus musculus with 9 samples.

Results

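Mature oligodendrocyte and myelin genes were described as a list of 36 genes, read from the count table by gene symbol. All 36 were among the 28991 genes of the table, and all 36 passed the low-count filter that left 17285 genes for testing. The RNA came from the midbrain (mesencephalon) of C57BL/6 mice, with 3 libraries in each of 3 groups. Controls received saline, the MPTP group received MPTP by intraperitoneal injection for 7 days, and the MPTP+PF4 group received the same toxin and PF4 intravenously every 3 days over the whole experiment. MPTP is a toxin whose metabolite is taken up by dopaminergic neurons, and PF4, or platelet factor 4, is a signalling protein stored in platelets. No transgene or mutation is named for any group, and the age of the mice is not given in the sources used here.

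Oligodendrocytes wrap axons of the central nervous system in a stack of membrane, the myelin sheath, which speeds conduction and feeds the axon. Compact myelin is held together by a few very abundant proteins, while adhesion proteins face the axon and the outer surface, and enzymes supply the galactolipids and cholesterol of the membrane. Myrf and Sox10 are transcription factors that switch on these genes as a precursor matures, and in the adult the same genes mark the number and activity of myelinating cells. In the midbrain, myelinated tracts such as the cerebral peduncle run beside the dopaminergic nuclei, so that myelin transcripts make up a sizeable part of its RNA.

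The label midbrain was checked against regional markers before the myelin genes were read. Slc6a3, the dopamine transporter, reached 574 and 526 CPM (read counts scaled to library size, CPM, with TMM factors) in controls 2 and 3 and 102 CPM in MPTP+PF4 2. The remaining 6 libraries, among them control 1, held 0.055 to 0.958 CPM of it. Th, the enzyme that makes the dopamine precursor, reached 195, 176 and 51.7 CPM in the same 3 and stayed between 4.95 and 18.1 CPM elsewhere. The 7 genes listed for striatal projection neurons summed to 158 to 206 CPM in these 3, and to 796 to 6406 CPM in the remaining 6. Region and treatment were therefore mixed in all 3 comparisons, as MPTP+PF4 2 was the only treated library with dopaminergic transcripts at these levels. The main counts below are also given without controls 2 and 3 and MPTP+PF4 2. That leaves control 1 as the only control and assumes that it varies like the other groups. The libraries held 32216850 to 36039211 counts, of which mitochondrial transcripts took 9.14% to 14.2%, and 3 counts corresponded to 0.0832 to 0.0931 CPM, below every value of the 36 genes. Haemoglobin transcripts took 0.628% of the counts in control 2 and 0.00527% to 0.0792% in the other libraries. The part of blood in the myelin values was not tested.

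Promoter sequences are shown for 4 of the genes, to set those with large differences beside one with almost none as counted. Mog, Opalin and Tmem125 had the largest MPTP against control differences among the surface proteins. Ugt8a had 1 of the smallest differences of the whole list as counted, and −0.38 with the correction for GC content and length given below. Each line is the 250 bases upstream of the RefSeq start of the gene (GRCm38.p6), written 5′ to 3′ on the gene's strand, which is the minus strand for all 4. Capitals mark matches on either strand to ACAAAG, a core of Sox10 sites, or to CAGCTG, an E-box bound by Olig2. They also mark matches to CTGGNAC, a loose pattern searched for Myrf sites with any base allowed at N. No other letters are in capitals.
Mog chr17:37023399-37023648: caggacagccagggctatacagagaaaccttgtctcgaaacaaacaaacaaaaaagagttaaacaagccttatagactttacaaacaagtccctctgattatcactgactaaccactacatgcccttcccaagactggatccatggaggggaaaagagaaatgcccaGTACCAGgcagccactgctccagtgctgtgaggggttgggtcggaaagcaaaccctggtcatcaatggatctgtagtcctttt
Opalin chr19:41077114-41077363: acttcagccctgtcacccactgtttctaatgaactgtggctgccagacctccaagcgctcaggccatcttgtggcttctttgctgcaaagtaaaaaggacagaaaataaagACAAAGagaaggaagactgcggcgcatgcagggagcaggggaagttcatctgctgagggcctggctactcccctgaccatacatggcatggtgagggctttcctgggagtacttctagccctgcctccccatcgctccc
Tmem125 chr4:118543727-118543976: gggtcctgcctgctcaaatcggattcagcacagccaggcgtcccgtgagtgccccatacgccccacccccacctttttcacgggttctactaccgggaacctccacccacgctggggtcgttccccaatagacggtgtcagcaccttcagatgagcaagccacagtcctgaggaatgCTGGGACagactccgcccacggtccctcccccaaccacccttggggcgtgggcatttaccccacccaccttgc
Ugt8a chr3:125938653-125938902: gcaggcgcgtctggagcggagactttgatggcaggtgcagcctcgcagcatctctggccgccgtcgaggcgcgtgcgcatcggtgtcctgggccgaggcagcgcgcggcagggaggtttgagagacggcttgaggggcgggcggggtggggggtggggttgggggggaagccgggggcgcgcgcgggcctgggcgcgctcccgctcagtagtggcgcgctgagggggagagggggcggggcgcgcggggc
Mog and Tmem125 held 1 match each to the Myrf letters, Opalin held 1 match to the Sox10 letters, and Ugt8a held none of the 3. The GC content of the 4 windows was 46.8%, 54.4%, 62.8% and 76.8% in that order. RefSeq promoters matched 26 of the 36 genes, and the Myrf letters occurred in 12 of the 26 (46.2%) against 17.9% of all 27025 genes with a window. These 12 were Apod, Cnp, Gjb1, Gsn, Hapln2, Mag, Mog, Nipal4, Plekhh1, Pmp22, Ppp1r14a and Tmem125. The Sox10 letters occurred in 7 of 26 (26.9%) against 18.6%, the Olig2 letters in 4 of 26 (15.4%) against 14.7%, and TATAAA, counted for comparison, in 2 of 26 (7.69%) against 14.3%. The printed windows hold at most 1 match each, so no matches overlap there. The Tmem125 window lies inside the gene as GENCODE draws it, since the 2 annotations place its start differently. A gene counted in these shares if any of its windows matched. The 26 genes had 39 windows and the 27025 genes 32851, so the listed genes had more windows per gene in which to match. A match is a description of the sequence only.

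Levels of different genes were compared as the deposited FPKM values, which are scaled by transcript length. Mbp, the basic protein that seals the inner faces of the membrane, stood highest in controls at 4294 ± 911.5 FPKM (SD, n = 3), followed by Mobp, a small basic protein of compact myelin, at 1517 ± 430.4 FPKM. Cnp, a phosphodiesterase of the uncompacted inner channels, followed at 379 ± 100.2 FPKM, Trf, the iron carrier transferrin, at 327 ± 28.3 FPKM and Apod, the lipid carrier apolipoprotein D, at 284 ± 138.5 FPKM. Mobp and Mbp did not overlap in any library pair of controls, whereas Trf, Apod and Mal (279 ± 48.1 FPKM) lay within each other's spread. Lowest were Nipal4 at 2.995 ± 0.352 FPKM, Carns1, the enzyme that joins histidine to beta-alanine, at 3.19 ± 0.215 FPKM and Adamts4, a secreted metalloprotease, at 4.87 ± 2.37 FPKM. The list thus held genes of very unequal level. In counts, the 36 genes took 1.62%, 2.26% and 2.22% of all reads in controls 1 to 3, 1.75%, 0.865% and 1.06% in MPTP 1 to 3, and 1.23%, 1.54% and 1.24% in MPTP+PF4 1 to 3. Mbp and Mobp together supplied 52.3% to 67.4% of those reads. MPTP 2 and 3 thus held the smallest shares and MPTP 1 a share above that of control 1. In bulk tissue, fewer oligodendrocytes and less of these RNAs per cell cannot be told apart.

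**Figure D1:**
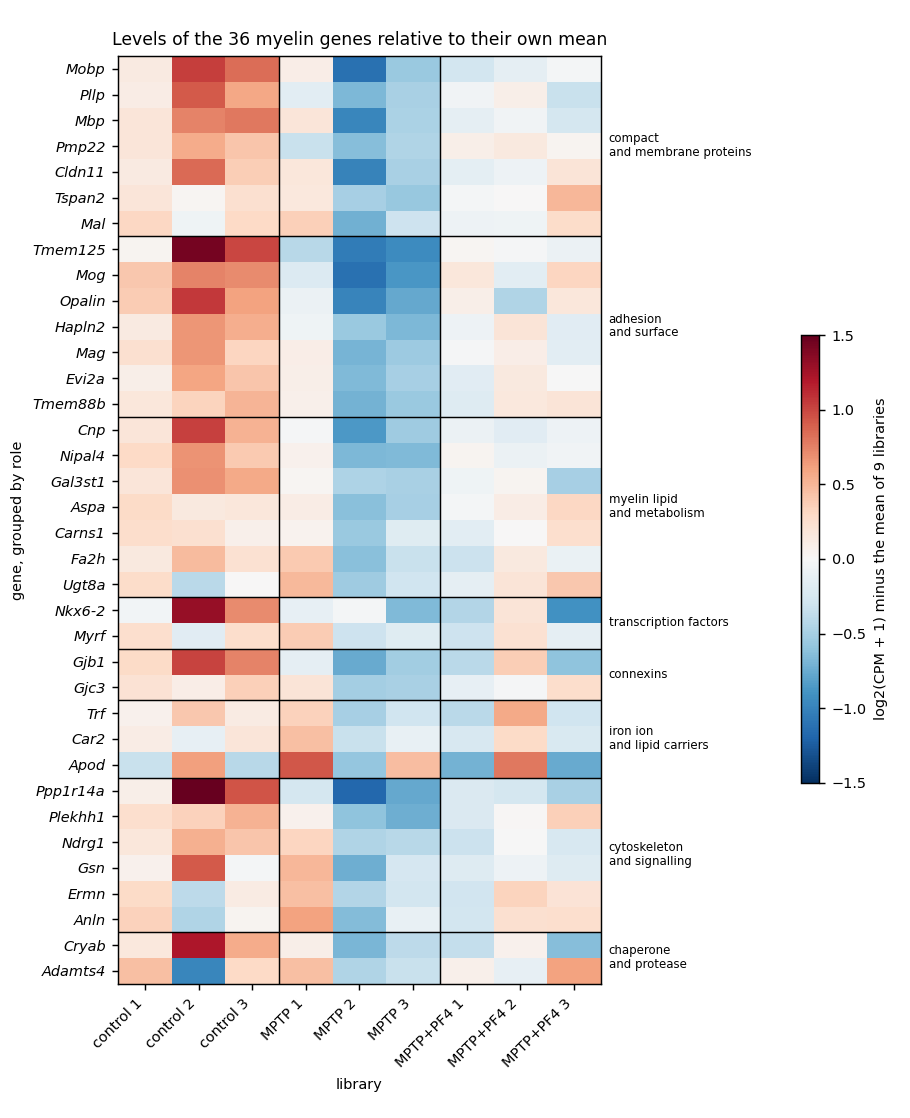
Level of each of the 36 genes (rows, grouped by role) in each of the 9 libraries (columns), as log2(CPM + 1) minus the gene's mean over the libraries. MPTP 2 was the lowest library for 28 of the 36 genes and control 2 the highest for 20, while Apod, Anln, Ermn and Ugt8a had other highest libraries.

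MPTP against control asked how the toxin-treated midbrain differed. Most myelin genes were lower with MPTP: 34 of 36 had a log2 fold change below 0, where 49.1% of all genes tested did, and the median was −0.74 against 0.01 over all genes. In 20 of 36 the 3 MPTP libraries all lay below the 3 controls, against 9.19% of all genes, and 10 of 36 were at least 2-fold lower, against 8.55%. None passed edgeR's quasi-likelihood test after Benjamini-Hochberg adjustment (smallest adjusted p 0.261), nor did any of the 17285 genes (0%). At an unadjusted p under 0.05 the count was 21 of 36, all lower, against 12.9% of all genes lower and 5.32% higher. DESeq2 called 9 of 36 lower and none higher, against 1.38% and 0.286% of genes: Tmem125, Mog, Opalin, Ppp1r14a, Pmp22, Pllp, Hapln2, Cnp and Gjb1. The authors' deposited table called 10 of 36 lower and none higher, against 5.84% and 2.12% of genes with a call: Cnp, Cryab, Gjb1, Mobp, Mog, Nkx6-2, Opalin, Pllp, Ppp1r14a and Tmem125.

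The count of calls depended on which controls entered. Without control 1, the control with low dopaminergic and high striatal transcripts, edgeR called 17 of 36 genes lower against 14% of all genes. Without controls 2 and 3 and MPTP+PF4 2, edgeR called 0 of 36, 5 of 36 had an unadjusted p under 0.05 and were lower against 0.639% of all genes, and the median was −0.51 with 35 of 36 below 0. The 6 libraries left were not alike in regional transcripts either: the striatal genes summed to 795.6 CPM in MPTP 2, the lowest library for 28 of the 36 genes, and to 2980 to 6406 CPM in the other 5. The part of region in the myelin values was not tested.

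Among the 7 membrane proteins of compact myelin and its junctions the median log2 fold change was −0.88. All 7 were below 0, against 49.1% of all genes, and 4 of 7 were lower without overlap, against 9.19%. Mbp measured 6746, 9978 and 10320 CPM in controls 1 to 3, 6730, 3024 and 4280 CPM in MPTP 1 to 3, and 5421, 5710 and 4964 CPM in MPTP+PF4 1 to 3. Its MPTP 1 library lay only just below control 1, and the log2 fold change was −0.95 (SE 0.30). Mobp stood at 2802, 5256 and 4558 CPM in controls, 2736, 1172 and 1738 CPM after MPTP, and 2115, 2330 and 2498 CPM after MPTP+PF4 (−1.16, SE 0.33, MPTP against control). Both basic proteins therefore had MPTP 1 beside control 1, and MPTP 2 and 3 far below. Pmp22, a tetraspan protein best known from peripheral myelin (chr11:63128982-63159547 in the GRCm38 annotation), had the smallest p among the 36 genes. Its level was 49.0, 63.5 and 57.9 CPM in controls, 33.9, 27.25 and 31.25 CPM after MPTP, and 45.7, 47.8 and 44.15 CPM after MPTP+PF4. All 3 groups of Pmp22 were separate from each other, and the MPTP mean was 54.2% of the control mean (−0.88, SE 0.16). Pllp, the proteolipid plasmolipin, measured 87.9, 153.9 and 122 CPM in controls, 72.8, 50.5 and 57.6 CPM after MPTP and 78.2, 86.0 and 64.0 CPM after MPTP+PF4 (−1.01, SE 0.24). Cldn11, the claudin of the tight junctions between myelin turns, had −0.84 (SE 0.31) with MPTP 1 at 335 CPM above control 1 at 327 CPM. Mal and Tspan2, both tetraspan proteins, overlapped between controls and MPTP, with MPTP 1 at 916 and 449.5 CPM.

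**Figure D2:**
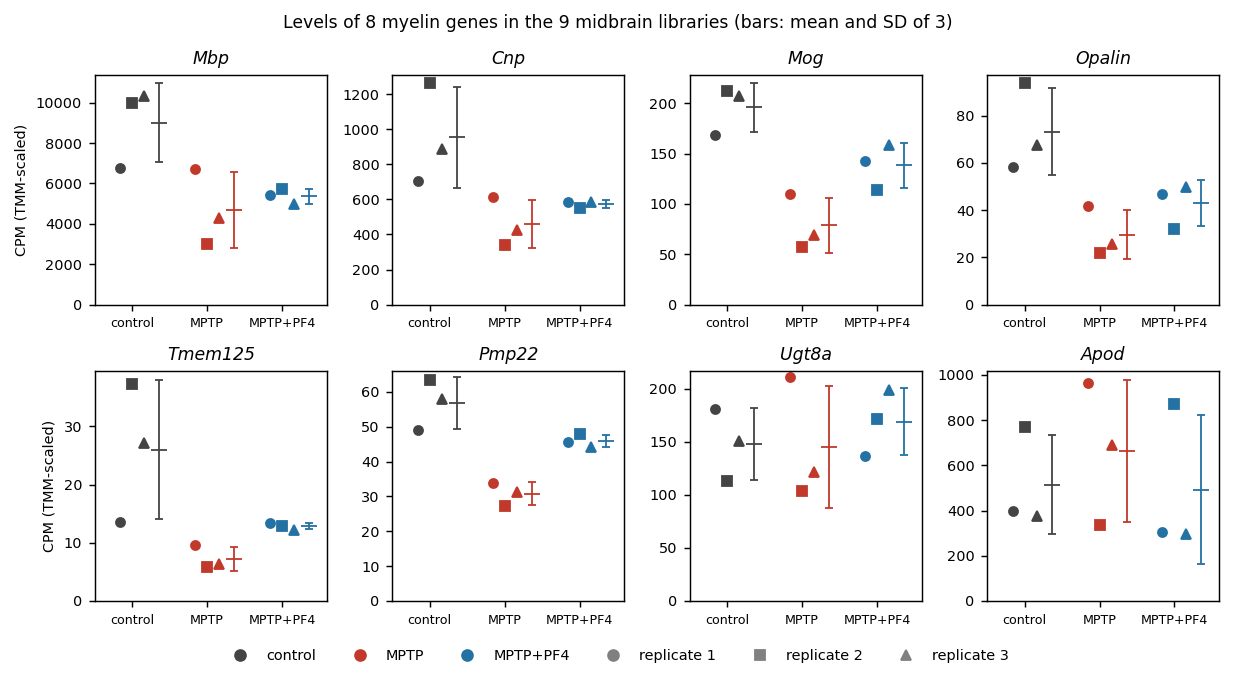
CPM of 8 of the genes in each library (points, shape by replicate number), with the mean and SD of each group of 3 beside them. Mog, Pmp22 and Tmem125 had every MPTP library below every control and every MPTP+PF4 library above every MPTP library, whereas Ugt8a and Apod overlapped between all groups.

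The 7 adhesion and surface proteins were the role group in which every member was lower without overlap (7 of 7 against 9.19% of all genes, median −0.91). Mog, a glycoprotein of the outermost sheath surface (chr17:37010743-37023398), stood at 168, 213 and 207 CPM in controls 1 to 3, 109.9, 57.6 and 68.8 CPM in MPTP 1 to 3, and 143, 113.5 and 158 CPM in MPTP+PF4 1 to 3. The MPTP mean was 40.2% of the control mean (−1.32, SE 0.26), and the 3 groups of Mog were again separate. Opalin, a membrane glycoprotein of the inner and paranodal loops (chr19:41061710-41077113), measured 58.1, 93.7 and 67.6 CPM in controls, 41.6, 21.7 and 25.6 CPM after MPTP and 47.0, 32.1 and 50.0 CPM after MPTP+PF4 (−1.30, SE 0.30). Tmem125, a transmembrane protein (chr4:118540941-118544044), stood at 13.5, 37.3 and 27.2 CPM in controls, 9.59, 5.83 and 6.36 CPM after MPTP and 13.4, 12.95 and 12.25 CPM after MPTP+PF4 (−1.84, SE 0.36). Control 1 lay much nearer to the MPTP libraries than controls 2 and 3 did for Tmem125, less so for Mog. Mag, which binds the axon from the innermost turn, measured 409.6, 549.8 and 436 CPM in controls, 371, 214 and 238 CPM after MPTP and 342, 371 and 310.0 CPM after MPTP+PF4 (−0.76, SE 0.24). Hapln2, a link protein of the matrix at nodes of Ranvier, had −0.91 (SE 0.23), Evi2a, encoded inside an intron of Nf1, −0.71 (SE 0.23) and Tmem88b −0.70 (SE 0.23). For Evi2a the separation rested on 70.39 CPM in MPTP 1 against 70.4 CPM in control 1, and its exons share bases with Evi2 on the same strand, so its reads are uncertain.

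Among the 7 genes of myelin lipids and metabolism the median was −0.52, and 5 of 7 were lower without overlap, against 9.19% of all genes. Cnp (chr11:100574904-100591729) stood at 704.5, 1265 and 889.8 CPM in controls, 613, 340.1 and 427 CPM after MPTP and 584, 548 and 587 CPM after MPTP+PF4 (−1.05, SE 0.27). Gal3st1, which adds the sulfate of sulfatide, measured 17.2, 24.7 and 22.7 CPM in controls, 15.3, 10.6 and 10.4 CPM after MPTP and 14.4, 15.4 and 10.3 CPM after MPTP+PF4 (−0.83, SE 0.24). Both lay below controls in all 6 treated libraries. Nipal4 was at 9.67 to 12.9 CPM in controls, 4.46 to 8.11 CPM after MPTP and 7.19 to 7.90 CPM after MPTP+PF4 (−0.95, SE 0.27). Aspa, which splits N-acetylaspartate into acetate for lipid synthesis, had −0.52 (SE 0.21). Carns1 was at 12.3 to 14.1 CPM in controls and 7.61 to 12.1 CPM after MPTP, without overlap but short of the unadjusted threshold. Fa2h, which hydroxylates the fatty acids of galactolipids, overlapped, with MPTP 1 at 97.6 CPM above controls 1 and 3. As counted, the exception of this group was Ugt8a, the enzyme that makes galactosylceramide, the main galactolipid of myelin. It stood at 181, 113 and 150.4 CPM in controls, 210.6, 103 and 121 CPM after MPTP and 136, 171 and 199 CPM after MPTP+PF4. Its MPTP mean was 97.9% of the control mean (−0.03, SE 0.30), and all 3 groups overlapped. With the correction for GC content and length given below, Ugt8a had −0.38 and was no longer apart from its group. Gal3st1 then had −0.37, Carns1 −0.24 and Fa2h −0.21, while Cnp had −0.90, Aspa −0.92 and Nipal4 −1.02.

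The 2 transcription factors had unlike values. Myrf, the regulator that drives the myelin genes, measured 100.5, 74.9 and 101 CPM in controls, 110.4, 68.1 and 74.1 CPM after MPTP and 67.96, 99.1 and 76.8 CPM after MPTP+PF4 (−0.13, SE 0.24). Nkx6-2, a homeobox factor of maturing oligodendrocytes, stood at 20.8, 54.6 and 35.5 CPM in controls, 19.5, 20.9 and 13.2 CPM after MPTP and 15.5, 24.7 and 10.9 CPM after MPTP+PF4 (−1.05, SE 0.40). Nkx6-2 was highest in controls 2 and 3 and MPTP+PF4 2, the libraries with dopaminergic transcripts, and without them its value was −0.22. Whether the difference between Myrf and Nkx6-2 exceeds their errors was not tested. Of the connexins, which form the gap junctions of oligodendrocytes, Gjb1 measured 28.4, 47.6 and 39.3 CPM in controls, 21.0, 13.3 and 15.8 CPM after MPTP and 17.2, 30.2 and 14.9 CPM after MPTP+PF4 (−1.20, SE 0.32). Gjc3 was at 122.9 to 148 CPM in controls and 80.4 to 132 CPM after MPTP, which overlapped (−0.46, SE 0.22).

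None of the 3 carriers separated the groups (median −0.02). Trf stood at 797, 1008 and 835 CPM in controls, 971.5, 540 and 619.8 CPM after MPTP and 577, 1138 and 621 CPM after MPTP+PF4 (−0.31, SE 0.31). Its exons share 2108 bases with the coding gene Gm20425 on the same strand, so its reads are uncertain. Mobp (79 bases) and Carns1 (1345 bases) overlap a processed transcript on their own strand in the same way. Apod, the gene with the highest log2 fold change of the list, measured 399.9, 768.5 and 376 CPM in controls, 962, 336 and 691 CPM after MPTP and 306, 872 and 298 CPM after MPTP+PF4 (0.37, SE 0.53). Car2, the carbonic anhydrase of oligodendrocytes, ranged from 247 to 424 CPM over the 9 libraries. Single libraries, MPTP 1 and MPTP+PF4 2, were the highest for Trf and Apod among the treated libraries. MPTP 1 also held 3155 CPM of 6 choroid plexus genes, against 5.596 to 1041 CPM in the other libraries, and control 2 held 305.6 CPM of 8 meningeal fibroblast genes, against 46.5 to 147.5 CPM; their part in the levels of Apod and Trf was not tested.

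Among the 6 genes of cytoskeleton and signalling the median was −0.49, and 2 of 6 were lower without overlap, against 9.19% of all genes. Ppp1r14a, an inhibitor of myosin phosphatase (chr7:29289308-29293801), stood at 11.9, 52.4 and 22.2 CPM in controls, 9.098, 4.35 and 6.09 CPM after MPTP and 9.44, 9.09 and 7.66 CPM after MPTP+PF4. It had the lowest log2 fold change of the list (−2.15, SE 0.51), for which control 2 stood far above the other controls. Plekhh1, a protein with pleckstrin homology domains, measured 85.2, 91.0 and 103 CPM in controls, 74.7, 46.5 and 42.6 CPM after MPTP and 61.2, 72.2 and 91.6 CPM after MPTP+PF4 (−0.77, SE 0.24). Ermn, Gsn, Anln and Ndrg1, of which gelsolin (Gsn) and anillin (Anln) bind actin, all overlapped between controls and MPTP. Cryab, a small heat shock chaperone, stood at 175, 367 and 233 CPM in controls, 167, 97.7 and 119 CPM after MPTP and 122.9, 164 and 100.4 CPM after MPTP+PF4 (−1.01, SE 0.32). Adamts4 was at 10.5 to 29.8 CPM in controls and 15.6 to 29.7 CPM after MPTP (−0.11, SE 0.41), with control 2 the lowest of all libraries. Exons of Adamts4, Cnp, Cryab, Ermn, Nkx6-2 and Plekhh1 overlap a coding gene on the other strand, and the strand setting of the counting is not given in the sources used here, so reads of the pair cannot be told apart.

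**Figure D3:**
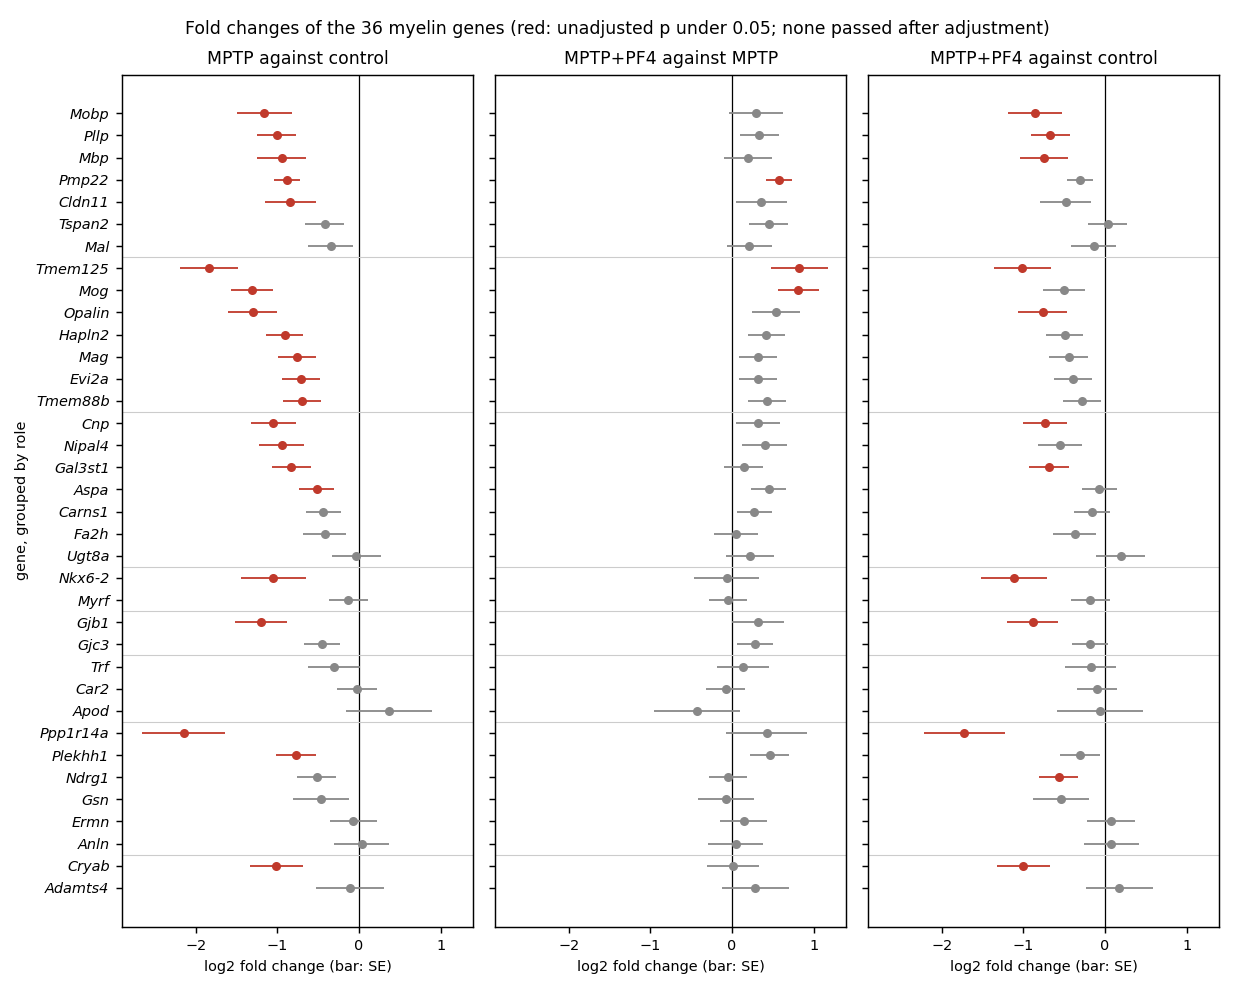
Log2 fold changes (points) with their SE (bars) of the 36 genes in the 3 comparisons, grouped by role, with an unadjusted p under 0.05 in red. Most points lie left of 0 against controls and right of 0 for MPTP+PF4 against MPTP, and none passed edgeR's test after adjustment over all genes, while DESeq2 called 9 lower for MPTP against control.

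MPTP+PF4 against MPTP asked whether the injected chemokine altered the level beside the toxin. Here 30 of 36 genes had a log2 fold change above 0, where 53.4% of all genes did, and the median was 0.29 against 0.02. This direction was not particular to the myelin genes. Above 0 were also 7 of 7 microglial genes (median 0.34), 6 of 6 precursor genes (0.19) and 8 of 9 astrocyte genes (0.18). Of 7 general neuronal genes 3 were above 0 (median −0.01), and of 6 ependymal genes 0 were. In edgeR 0 of 36 passed after adjustment (0%; adjusted p 1 for each), and DESeq2 called 0 of 36 too, against 0.0157% of genes higher and 0.0734% lower. Pmp22, Mog and Tmem125 were the 3 genes whose MPTP+PF4 libraries all lay above the MPTP libraries, against 3.04% of all genes, and the same 3 had an unadjusted p under 0.05, against 0.648%. In the other direction the count was 0 by both rules, against 4.07% and 1.36%. Pmp22 had 0.58 (SE 0.16), Mog 0.81 (SE 0.26) and Tmem125 0.82 (SE 0.35). In ratio, the MPTP+PF4 mean was 149% of the MPTP mean for Pmp22, 175.6% for Mog and 177% for Tmem125. Opalin had 0.54 (SE 0.30), Plekhh1 0.46 (SE 0.24) and Aspa 0.45 (SE 0.21), each with overlapping groups. Mbp had 0.20 (SE 0.30), Mobp 0.30 (SE 0.33) and Cnp 0.32 (SE 0.27), all near their errors. Apod had the lowest value, −0.43 (SE 0.53). In the authors' deposited table none of the 36 was called in either direction, against 0.205% of genes called higher and 1.2% called lower.

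The MPTP libraries also differed among themselves, and MPTP 1 was above both MPTP 2 and MPTP 3 for 35 of 36 genes. MPTP+PF4 2 was above both MPTP 2 and MPTP 3 for 36 of 36, MPTP+PF4 3 for 30 and MPTP+PF4 1 for 29, while the 3 libraries were above all of the MPTP libraries for 12, 12 and 6 genes in that order. Without MPTP 1 the median was 0.55 and 14 of 36 were higher at an unadjusted p under 0.05, against 0.837% of all genes. With the correction for GC content and length, 6 of 36 were higher at that threshold, against 0.975%. Without MPTP 2 the median was 0.10, with 12 of 36 below 0. Without controls 2 and 3 and MPTP+PF4 2 it was 0.26, and 4 of 36 were higher and 1 lower at an unadjusted p under 0.05, against 1.98% and 2.95% of all genes. Pmp22, Mog and Tmem125 then had 0.55, 0.94 and 0.82. These 3 genes had been picked because all their MPTP+PF4 libraries lay above all MPTP libraries. Leaving out MPTP+PF4 2 could therefore not turn their direction.

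MPTP+PF4 against control shared its controls with the first comparison and its treated libraries with the second. The median of the list was −0.42, against −0.0045 over all genes, and 31 of 36 were below 0, against 50.2%. In edgeR 0 of 36 passed (0%; smallest adjusted p 0.268 by Benjamini-Hochberg), and DESeq2 called 0 of 36, against 0.0211% of genes lower and 0.0169% higher. At an unadjusted p under 0.05, 12 of 36 were lower and 0 higher, against 12.1% and 6.25% of all genes, and 15 of 36 did not overlap and were lower, against 6.78%. Ppp1r14a had −1.72 (SE 0.50), Nkx6-2 −1.11 (SE 0.40), Tmem125 −1.02 (SE 0.35) and Cryab −0.9996 (SE 0.32). With the GC content and length correction these 4 had −0.68, −0.45, −0.48 and −0.38, and the count lower at an unadjusted p under 0.05 was 6 of 36, against 8.33% of all genes. Pmp22 had −0.31 (SE 0.15) and Mog −0.50 (SE 0.25), and Ugt8a had 0.19 (SE 0.30), the highest of the list. The authors' deposited table called Nkx6-2, Ppp1r14a and Tmem125 lower, 3 of 36 against 4.77% of genes with a call, and none higher, against 1.65%. Without control 1, edgeR called 9 of 36 lower, against 13.2% of all genes. Without controls 2 and 3 and MPTP+PF4 2 the median was −0.27, with 35 of 36 below 0 and 1 of 36 lower at an unadjusted p under 0.05, against 0.817%.

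Set side by side, group means ran from control through MPTP+PF4 to MPTP in 25 of 36 genes (69.4%), an order found in 22.6% of all genes. The 3 contrasts share libraries, so this order is a description of 9 libraries and not a separate result. Ranked by library, control 2 was the highest for 20 of 36 genes, MPTP 1 for 7 and control 3 for 4, while MPTP 2 was the lowest for 28. MPTP 2 was below every control for 34 of 36 genes, MPTP 3 for 30 and MPTP 1 for 21. MPTP 1 exceeded control 1 for 12 of 36, namely Mal, Cldn11, Fa2h, Ugt8a, Myrf, Trf, Car2, Apod, Ermn, Gsn, Anln and Ndrg1. The spread of single genes over the 9 libraries went from 1.625-fold for Myrf and 1.72-fold for Car2 to 6.395-fold for Tmem125 and 12.04-fold for Ppp1r14a.

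Transcript length and GC content went along with the size of the difference. Across the 36 genes (which are not independent replicates), the MPTP against control log2 fold change had a Pearson r of 0.516 and a Spearman rho of 0.476 with log2 transcript length, and −0.446 and −0.40 with GC content. For MPTP+PF4 against control, which shares the controls, the r was 0.618 with length and −0.626 with GC content. Over the 15382 tested genes with an annotation the r values for MPTP against control were 0.300 and −0.296. Between 2 controls, control 2 over control 1, the r over the 36 genes was −0.672 with length and 0.524 with GC content, so a gradient was also present between 2 control libraries, which differ in regional transcripts (0.393 CPM of Slc6a3 in control 1, 574 CPM in control 2). The 18 shorter genes (950 to 2653 bases) had a median of −0.86 and the 18 longer genes (2778 to 6439 bases) −0.49. After the per-library trend on GC content and length was removed, these medians were −0.53 and −0.77, and the whole list had −0.67 with 34 of 36 below 0. Ppp1r14a then had −1.21, Gjb1 −0.72, Hapln2 −0.59, Nkx6-2 −0.48, Mag −0.46, Cryab −0.45 and Gal3st1 −0.37, each closer to 0. Opalin had −1.54, Mbp −1.11, Aspa −0.92 and Gjc3 −0.76, each farther from 0. The order of the genes thus depended on the correction, and only Car2 (0.04) and Anln (−0.25) stood on the other side of 0 after it.

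**Figure D4:**
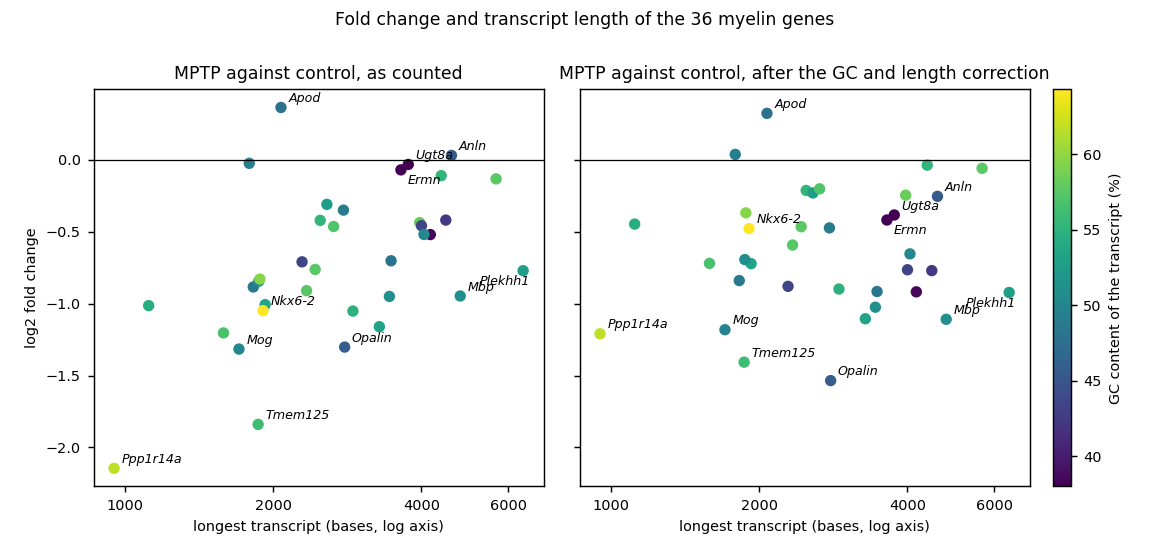
MPTP against control log2 fold change of the 36 genes against the length of the longest annotated transcript (log axis), coloured by GC content, as counted (left) and after the GC and length correction (right). Short, GC-rich genes such as Ppp1r14a lie lowest on the left at −2.15 and at −1.21 on the right, where Opalin is lowest at −1.54.

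Other stages of the lineage were read from further lists. Of 15 other genes of mature oligodendrocytes, 13 were below 0 with MPTP, against 49.1% of all genes (median −0.99). At an unadjusted p under 0.05, 10 were lower, against 12.9%, and 9 were lower without overlap, against 9.19%. The 2 with the smallest p were Serpinb1a, a protease inhibitor, at 23.3, 38.1 and 26.3 CPM in controls, 10.25, 7.39 and 9.46 CPM after MPTP and 17.3, 16.7 and 19.6 CPM after MPTP+PF4, and Il33, a nuclear alarmin of oligodendrocytes and astrocytes, at 119, 119.7 and 132 CPM, 61.4, 64.1 and 56.3 CPM, and 104, 101 and 127 CPM in the same order. In both, as in Mog, Pmp22 and Tmem125, MPTP+PF4 lay between the other groups or beside controls, with MPTP+PF4 against MPTP values of 0.98 (SE 0.22) and 0.87 (SE 0.15). DESeq2 called 7 of the 15 lower for MPTP against control, against 1.38% of genes, Serpinb1a and Il33 among them. For MPTP+PF4 against MPTP it called 1 of the 15, Il33, which was higher, against 0.0157% of genes. The 8 transcription factors of the lineage were all below 0 (median −0.44), with Olig1 at 172, 436 and 311 CPM in controls and 129 to 156 CPM after MPTP (−1.12, SE 0.32) and Sox10, Olig2 and Nkx2-2 at −0.34, −0.53 and −0.87. Olig1, like Nkx6-2, was highest in controls 2 and 3.

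Precursor genes did not share that pattern in MPTP against control. Of 6, 3 were below 0 and 3 above (median 0.17), with Pdgfra, the receptor that marks oligodendrocyte precursors, at 71.5, 38.5 and 53.3 CPM in controls and 54.6, 67.1 and 40.4 CPM after MPTP (−0.01, SE 0.26). C1ql1 had −2.16 (SE 0.81), led by 67.1 CPM in control 2, and Ptprz1 0.80 (SE 0.35). Of 7 genes of premyelinating cells, Bcas1, a protein of early myelin, measured 421, 770.2 and 719 CPM in controls and 388, 181 and 262.5 CPM after MPTP (−1.20, SE 0.31), and Rras2 had −0.82 (SE 0.28), while the list's median was −0.15. Neither list had a gene past the adjusted threshold in edgeR.

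**Figure D5:**
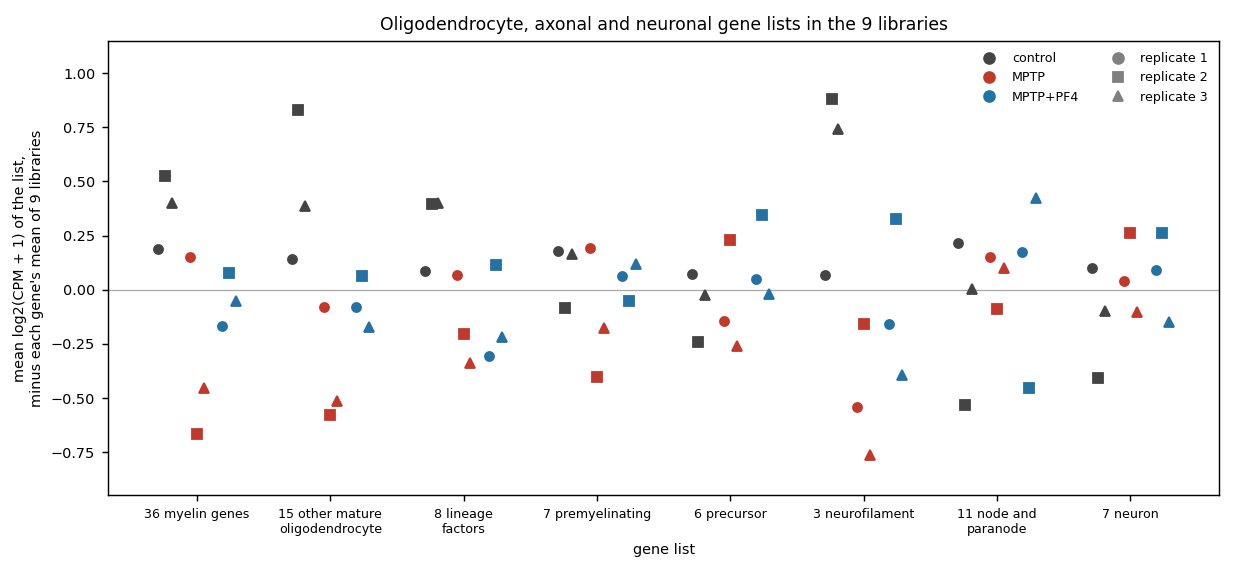
Mean log2(CPM + 1) of each gene list in each library, minus each gene's mean over the 9 libraries, with colour for group and shape for replicate number. The 36 myelin genes and the 15 other mature genes were lowest in MPTP 2 and 3, and precursor, node and neuron lists did not follow the same order.

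Lipid supply and the axon were read in the same way. Of 12 cholesterol synthesis genes, 4 were lower with MPTP at an unadjusted p under 0.05, against 12.9% of all genes, among them Mvd and Msmo1. For MPTP+PF4 against MPTP 12 of 12 were above 0 (median 0.31), against 53.4%. At the same threshold 3 were higher, against 0.648%. Msmo1, a demethylase of the pathway, stood at 103, 173 and 128 CPM in controls, 86.5, 85.8 and 69.2 CPM after MPTP and 119.5, 128 and 118 CPM after MPTP+PF4. Among 9 genes of sphingolipid synthesis and turnover, Elovl1, which extends very long fatty acids, had −0.94 (SE 0.22) and Cers2, the matching ceramide synthase, −0.37 (SE 0.17), with the median at −0.01. All 3 neurofilament genes, structural proteins of thick axons, were lower with MPTP without overlap, against 9.19% of all genes. Nefl had −0.65 (SE 0.23), Nefm −0.96 (SE 0.23) and Nefh −1.64 (SE 0.42). Of 11 genes of the node and paranode and 7 general neuronal genes, none had an unadjusted p under 0.05, and their medians were 0.14 and 0.23. Neurofilaments, like the myelin genes, were highest in controls 2 and 3, with a summed level of 1209 and 1142 CPM against 479.4 to 957 CPM in the other libraries, and their part in the myelin levels was not tested.

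Schwann cells, the myelinating cells of peripheral nerve, were read because they also use Pmp22 and Mbp. Of the 5 genes listed for them, Pmp2 was at 0 to 0.134 CPM, Prx at 0.219 to 0.77 CPM, Ncmap at 0.461 to 3.01 CPM and Drp2 at 42.9 to 64.7 CPM over the 9 libraries. Their part in the levels of Pmp22 and Mbp was not tested. Markers of other cell types were counted in the same way, and none passed edgeR's test after adjustment, as no gene did. With MPTP against control, 2 of 9 astrocyte genes (22.2%) were lower and 1 higher at an unadjusted p under 0.05. Of 7 microglial genes, 1 (14.3%) was lower. Both shares lower stood near that of all genes, of which 12.9% were lower and 5.32% higher. In the same comparison, 5 of 8 meningeal fibroblast genes and 3 of 6 endothelial genes were lower at an unadjusted p under 0.05, against the same 12.9%. Their summed levels were 79.99 to 305.6 and 307 to 489 CPM in controls and 46.5 to 147.5 and 219.6 to 277 CPM after MPTP. With MPTP+PF4 against MPTP, 6 of 6 ependymal genes were lower at that threshold, against 1.36% of all genes. Their summed levels were 24.4 to 71.1 CPM after MPTP and 11.3 to 17.1 CPM after MPTP+PF4. The part of these cells in the myelin results was not tested.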

How the data were processed

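RNA of 9 midbrain libraries (3 controls, 3 MPTP, 3 MPTP+PF4) was read from 1 deposited table, and groups and replicate numbers were taken from the sample titles. The values used were the authors' deposited raw read counts per gene, the authors' FPKM (used only to compare levels between genes), and the words for regulated genes in the authors' deposited comparisons, whose headings name DESeq2, an unadjusted p of 0.05 and a fold of 2. The genome build was mm9 per the submitters' processing notes, and the aligner, the counting tool and its strand setting are not given in the sources used here. Broken lines, 10 of 29001, were left out, and 6955 of the 28991 genes were unnamed loci.

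The test was edgeR's robust quasi-likelihood test (edgeR 4.0.16, R 4.3.3) on the counts of all 9 libraries with group as the only term, after TMM scaling and filterByExpr (minimum count 10), with Benjamini-Hochberg adjustment over 17285 genes. CPM are TMM-scaled, and the biological coefficient of variation was 0.394. SE is the absolute log2 fold change over the root of F. The labels' protocol has samples collected in triplicate and does not say that libraries of a group came from separate animals, so p-values measure the spread between these samples, and the limit of 3 counts covers counting error only. The labels do not say whether samples with the same replicate number were paired, and the main fit did not pair them. Transcript length, GC content and positions came from GENCODE (GRCm38), and promoters from RefSeq (GRCm38.p6), matched by symbol or ID; no coordinate was converted from mm9.

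Alternatives were RLE scaling, DESeq2 1.42.0, no filter, at least 1 CPM in 3 libraries, the 6 libraries of a comparison alone, a replicate block, a correction for GC content and length (splines with 5 degrees of freedom), each library left out in turn, and controls 2 and 3 and MPTP+PF4 2 left out together. The edgeR fit for MPTP against control was also run on simulated counts, and its recovery of changed genes is not reported here. The members and lists were chosen with earlier results of these data known. Genes given with values in every library were the 2 of each role with the smallest p in MPTP against control, Mbp and Mog, and the largest and smallest fold changes; other members with an unadjusted p under 0.05, or of interest beside them, were added after their values were seen. Of the other mature, precursor, premyelinating, cholesterol and sphingolipid lists the 2 genes with the smallest p were named. Of the lineage factors Olig1 had the smallest p. Genes of the neurofilament and Schwann cell lists, Th and Slc6a3 were also named. The remaining lists were given by counts, medians or summed levels only. Pdgfra, Sox10, Olig2 and Nkx2-2 were added after their values were seen. Among the other lists, 2 genes are not reported here.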

Additional observations from a re-analysis of the deposited data

How the results depend on the processing

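The median log2 fold change of the 36 genes stayed below 0 against controls and above 0 for MPTP+PF4 against MPTP under every alternative run, while counts of calls depended on the tool and on control 1. For MPTP against control, DESeq2 called 280 genes and 9 of the 36, leaving out 1 library in turn gave 0 to 4577 genes and 0 to 17 of the 36 (the highest without control 1), and leaving out controls 2 and 3 and MPTP+PF4 2 gave 1 gene. For MPTP+PF4 against control, DESeq2 called 9 genes, leaving out 1 library gave 0 to 4539 genes and 0 to 9 of the 36 (the highest without control 1), and the 3 libraries left out gave 1 gene. For MPTP+PF4 against MPTP, DESeq2 called 17 genes. The cause was not tested.

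Single genes near 0 turned direction. Over the libraries left out in turn, MPTP against control ran from −0.38 to 0.18 for Ugt8a, −0.35 to 0.0219 for Myrf and −0.45 to 0.16 for Adamts4. MPTP+PF4 against MPTP ran from −0.0526 to 0.54 for Mbp, −0.22 to 0.17 for Myrf, −0.43 to 0.17 for Nkx6-2, −0.0557 to 0.50 for Gjb1, −0.25 to 0.41 for Trf and −0.20 to 0.24 for Cryab. MPTP+PF4 against control ran from −0.17 to 0.013 for Aspa, −0.76 to 0.35 for Apod and −0.16 to 0.45 for Adamts4. With the GC content and length correction, Myrf had 0.0416 and Nkx6-2 0.0307 for MPTP+PF4 against MPTP, and Ugt8a −0.27 for MPTP+PF4 against control. Without controls 2 and 3 and MPTP+PF4 2, Gjb1 had −0.0548, Trf −0.24 and Cryab −0.20 for MPTP+PF4 against MPTP, and Ugt8a −0.11 and Adamts4 −0.0869 for MPTP+PF4 against control.

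Same-numbered libraries of different groups had correlations of −0.291 to 0.519 in their deviations (median 0.158, 9 pairs), against −0.539 to 0.489 (median −0.11, 18 pairs) for other numbers. With the replicate block 0 of the 36 and 0 genes were called in each comparison, the medians were −0.74, 0.30 and −0.42, and Cryab had −0.0345 for MPTP+PF4 against MPTP. With 3 libraries a group, the least precise differences of the named genes among the 36 were those of Apod (SE 0.53 for MPTP against control) and Ppp1r14a (SE 0.51).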
